A study of Mus musculus with 15 samples.

Results

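Trbj1 is the upstream cluster of joining (J) segments in the mouse T cell receptor (TCR) β locus, and its 7 genes, Trbj1-1 to Trbj1-7, were followed in the TCR β rearrangements of 15 samples. The members were chosen by name, as every rearrangement whose J gene the deposited files call TCRBJ01-01, TCRBJ01-02, TCRBJ01-03, TCRBJ01-04, TCRBJ01-05, TCRBJ01-06 or TCRBJ01-07 (Trbj1-1 to Trbj1-7 in that order), which are 7 of the 14 J genes listed. They numbered 9537 of 29992 rearrangements and 30696 of 95511 templates, a template being the assay's estimate of 1 copy of genomic DNA. Of these rearrangements, 6199 of 18625 were productive (in frame and without a stop codon), 3215 of 11004 were out of frame and 123 of 363 held a stop codon. A TCR here is a distinct productive rearrangement of 87 sequenced bases.

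The samples were CD8+ PD-1+ CD44+ T cells sorted from the tumor-draining lymph node (TdLN), from the right-flank tumor (tumor 1) and from the left-flank tumor (tumor 2) of 5 untreated control mice, with 1 sample of each tissue from each mouse. The paper states that its TdLN was always that of the tumor 1 side, so tumor 2 lay on the opposite flank. The sample titles name no side for the node. The labels name no engineered allele, and control mice received neither radiation nor antibody; in the study's general methods the mice were female C57BL/6 bought at 6 weeks of age. Both tumors were B16F10GP, mouse melanoma cells made to express a viral glycoprotein that serves as model antigen, and tumor 2 was injected 3 days after tumor 1. Rearranged DNA holds no marker of the CD8 lineage or of PD-1, so the sort rests on the sample titles alone; the cell type label of every sample reads B16F10GP, the tumor line, although the files hold TCR rearrangements. Because genomic DNA was counted, template numbers follow cells and not the amount of RNA per cell.

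A TCR β gene is assembled in developing T cells by joining a diversity (D) segment to a J segment and then a variable (V) segment to the DJ product. The RAG recombinase cuts at recombination signals beside each segment, made of a heptamer and a nonamer held apart by a spacer, nucleases trim the cut ends, and terminal transferase adds untemplated N bases. The V, D and J ends together form the third complementarity-determining region (CDR3), which touches the antigen peptide. Trbj1 lies between the D segments Trbd1 and Trbd2, so Trbd1 can be joined to either J cluster by deletion, whereas Trbd2 lies past Trbj1 and beside the Trbj2 cluster. An out-of-frame rearrangement makes no receptor and is carried along in cells whose other allele is productive.

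The germline segments are shown with the recombination signal in front of each, since the junctions described below were read against them. They are RefSeq segments of GRCm38 (mm10, the build in the submitters' processing notes), on the plus strand of chromosome 6, and each line starts at the nonamer. The nonamer and the heptamer are in capitals, and the 12 bases between them are the spacer.
Trbj1-1: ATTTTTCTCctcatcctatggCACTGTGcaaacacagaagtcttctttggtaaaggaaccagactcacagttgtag
Trbj1-2: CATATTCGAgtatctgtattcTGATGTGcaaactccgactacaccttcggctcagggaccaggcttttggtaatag
Trbj1-3: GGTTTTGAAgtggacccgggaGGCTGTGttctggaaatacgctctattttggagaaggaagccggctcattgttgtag
Trbj1-4: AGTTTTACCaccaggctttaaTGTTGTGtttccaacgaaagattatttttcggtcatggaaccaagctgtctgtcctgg
Trbj1-5: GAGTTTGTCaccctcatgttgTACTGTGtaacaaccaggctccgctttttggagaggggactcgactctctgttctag
Trbj1-6: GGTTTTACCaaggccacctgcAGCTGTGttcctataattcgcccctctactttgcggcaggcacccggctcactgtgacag
Trbj1-7: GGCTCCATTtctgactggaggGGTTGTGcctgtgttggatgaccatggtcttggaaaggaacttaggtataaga

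The segments lie at chr6:41533864-41533911 for Trbj1-1, chr6:41534001-41534048 for Trbj1-2, chr6:41534323-41534372 for Trbj1-3, chr6:41534811-41534861 for Trbj1-4, chr6:41535084-41535133 for Trbj1-5, chr6:41535554-41535606 for Trbj1-6 and chr6:41535642-41535687 for Trbj1-7. The cluster spans 1824 bases, begins 652 bases past the end of Trbd1 and ends 6475 bases before Trbd2. All 7 segments are listed under these names in GENCODE M21. Whether each is annotated as functional was not examined. Against the consensus heptamer CACTGTG, Trbj1-1 matches at 7 of 7 positions, Trbj1-5 at 6, Trbj1-3 and Trbj1-6 at 5, and Trbj1-2, Trbj1-4 and Trbj1-7 at 4. In all 9537 rearrangements the J bases read were identical to the germline segment, over a median of 17 bases in Trbj1-1 and 7 bases in Trbj1-7.

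The tissues differed in depth and, more widely, in the number of TCRs. The TdLN samples held 4909 to 13848 templates and 1290 to 5722 unique productive TCRs, against 5382 to 7946 templates and 183 to 366 TCRs in tumor 1 and 338 to 5401 templates and 50 to 553 TCRs in tumor 2. Tumor 2 of mouse 4 was the shallowest sample, with 238 productive templates and 50 TCRs, of which 15 used Trbj1, so a J gene unseen there is limited only to below 6% of its TCRs (3 counts of the total, counting error only).

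Samples of different mice shared rearrangements, most of all in the tumors. Of 5808 distinct productive Trbj1 rearrangements, 127 (2.19%) occurred in several mice. They made up 1.46 to 4.50% of the Trbj1 TCRs of a TdLN, 7.69 to 24.2% in tumor 1 and 8.11 to 59.0% in tumor 2. In tumor 2 of mouse 1, 59 of 100 Trbj1 TCRs were also found in another mouse, and 33 of them, holding 49.3% of that sample's Trbj1 templates, had more templates in the other mouse than in any sample of mouse 1. In tumor 2 of mouse 2 these numbers were 52 of 101 and 29. In tumor 2 the shared Trbj1 TCRs lay mostly among mice 1 to 3 and between mice 4 and 5, whose library names are also written differently. Tumor 2 of mouse 1 shared 49 Trbj1 TCRs with mouse 2 and 26 with mouse 3, whereas tumor 2 of mouse 4 shared 6 with mouse 5 and 0 with mice 1 to 3. Some samples of the other tissues showed this split too. Tumor 1 of mouse 2 shared 21 with mouse 1 and 0 and 2 with mice 4 and 5. Tumor 1 of mouse 4 shared 13 with mouse 5 and 1 with each of mice 1 to 3. The TdLN of mouse 4 shared 31 with mouse 5 and 6, 1 and 1 with mice 1 to 3. The split was less clear in others, such as mouse 1. Its tumor 1 shared 10 with mouse 2, 8 with mouse 5, 3 with mouse 4 and 1 with mouse 3. Its TdLN shared 10, 5, 5 and 3 with these mice. The comparisons of tumors with TdLN in J gene usage, template share and junction were also made without such rearrangements; for the other results the part of sharing was not tested.

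About 1 TCR in 3 used Trbj1 in every tissue. Trbj1 took 31.8, 31.3, 31.6, 33.7 and 34.7% of the unique productive TCRs in the TdLN of mice 1 to 5 (32.6 ± 1.49%, mean ± SD, n = 5). In tumor 1 the shares were 33.1, 32.5, 35.5, 28.7 and 34.7% (32.9 ± 2.65%, n = 5), and in tumor 2 they were 30.2, 27.9, 39.2, 30 and 33.5% (32.1 ± 4.40%, n = 5). The 3 ranges overlapped, and mouse 3 held the highest value of both tumors. Tumor 1 exceeded the TdLN by 0.296 percentage points on average (two-sided exact permutation test, p = 0.833, adjusted over 3 pairs of tissues 0.857), and was higher in 4 of 5 mice. Tumor 2 fell short of the TdLN by a mean difference of -0.460 points (exact p = 0.857, adjusted 0.857) and was higher in 1 of 5 mice. The within-mouse SD of these differences was 3.30 and 4.65 points, so both means were small beside their spread over 5 mice. Within mice 1 to 3 the difference for tumor 1 was 2.15 points and within mice 4 and 5 it was -2.49 points; for tumor 2 these were 0.877 and -2.47 points.

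**Figure D1:**
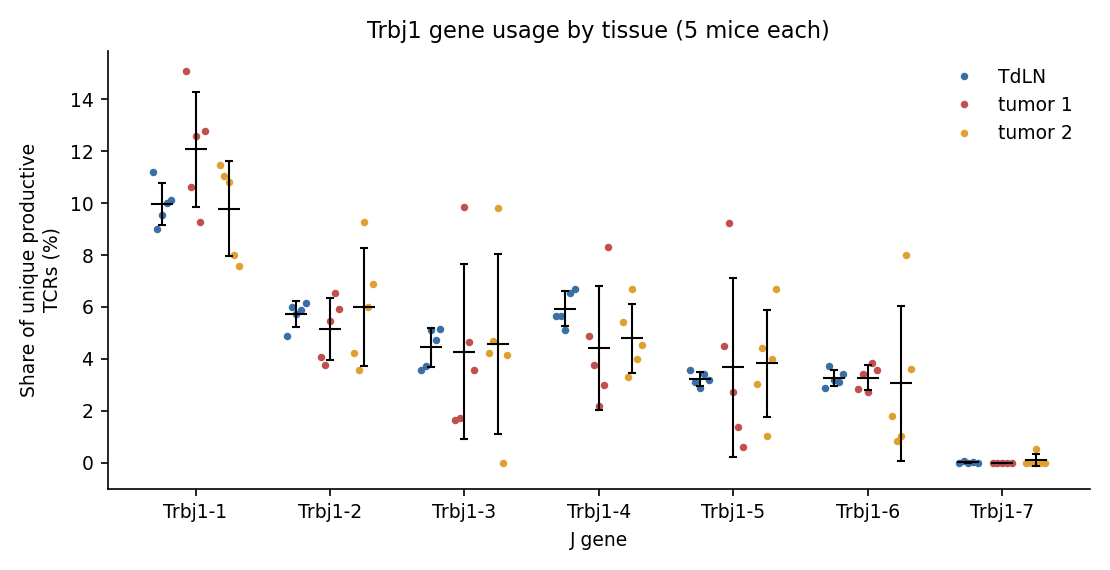
Share of unique productive TCRs (percent, y axis) that used each Trbj1 gene in the TdLN, tumor 1 and tumor 2, with 1 point per mouse and bars for the mean and SD of 5 mice. Trbj1-1 stands highest in all 3 tissues, at 9.97% on average in the TdLN, Trbj1-7 lies at or close to 0, and the tumor points spread more widely than the TdLN points.

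Within the cluster the genes were used unequally, with Trbj1-1 first among unique TCRs in all 5 TdLNs. Trbj1-1, the segment nearest to Trbd1, was the most used, at 11.2, 9.01, 9.53, 9.997 and 10.1% of TCRs (9.97 ± 0.816%, n = 5). Trbj1-4 followed at 5.93 ± 0.671% and Trbj1-2 at 5.73 ± 0.491%, and these neighbours did not differ beyond their spread (Trbj1-4 higher in 3 of 5 mice; two-sided exact sign-flip test adjusted over 6 neighbour pairs, p = 0.6). Trbj1-3 came next at 4.46 ± 0.755%, then Trbj1-6 at 3.27 ± 0.320% and Trbj1-5 at 3.23 ± 0.271%, again a pair that was not separated (exact sign-flip test, adjusted p = 0.938). Trbj1-7 was found in 2 productive TCRs, 1 in the TdLN of mouse 2 and 1 in that of mouse 4. Of the other neighbours, Trbj1-1 was above Trbj1-4, Trbj1-2 above Trbj1-3 and Trbj1-5 above Trbj1-7 in 5 of 5 mice (exact sign-flip p = 0.0625 each, the smallest that 5 mice allow, adjusted 0.125), and Trbj1-3 was above Trbj1-6 in 4 of 5 (exact p = 0.125, adjusted 0.188). Counted in templates the order changed. Trbj1-5 held 6.51, 6.67 and 6.02% in the TdLN of mice 1 to 3, above Trbj1-1 at 5.45, 5.29 and 4.97%. In mouse 5 Trbj1-4 was above Trbj1-1 (6.93 against 6.56%), and in mouse 4 Trbj1-1 stayed first (6.62%).

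The usage of single Trbj1 genes differed between the tumors and the TdLN by less than the spread between samples. Of the 14 J genes of both clusters, 0 passed edgeR's quasi-likelihood test in tumor 1 (0% called) and 0 in tumor 2 (0% called), with 2 and 1 genes at an unadjusted p under 0.05, none of them in Trbj1. DESeq2 also called 0 in each tumor. Trbj1-4 had the lowest adjusted p among the Trbj1 genes in tumor 1: it took 4.90, 3.77, 2.19, 3.01 and 8.31% of tumor 1 TCRs against 5.64, 5.64, 5.12, 6.55 and 6.69% in the TdLN. The fitted log2 fold change was -0.43 (SE 0.227, edgeR adjusted p = 0.300), and mouse 5 went the other way from the remaining mice. Trbj1-1 was at 15.1, 10.6, 12.6, 9.29 and 12.8% in tumor 1, above the TdLN of the same mouse in 4 of 5 mice (log2 fold change 0.24, SE 0.149, adjusted p = 0.357).

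The shares of most Trbj1 genes spread more widely over the tumor samples than over the TdLNs, Trbj1-3 and Trbj1-5 most widely of all in tumor 1. In tumor 1 they rest on 4 to 18 Trbj1-3 and 2 to 27 Trbj1-5 TCRs per sample, against 48 to 294 and 37 to 196 in the TdLN. The part of counting error in this spread was not tested. Trbj1-3 ranged from 1.63% in mouse 1 to 9.84% in mouse 3 in tumor 1, and from 0% in mouse 4 to 9.79% in mouse 3 in tumor 2, against 3.56 to 5.14% in the TdLN. Trbj1-5 ranged from 0.593% in mouse 5 to 9.25% in mouse 2 in tumor 1, and from 1.03% in mouse 3 to 6.69% in mouse 5 in tumor 2. Their log2 fold changes were -0.24 (SE 0.276) and 0.11 (SE 0.319) in tumor 1 and 0.07 (SE 0.254) and 0.45 (SE 0.289) in tumor 2, with edgeR adjusted p from 0.283 to 0.893. Trbj1-2 lay between 3.59 and 9.28% and Trbj1-6 between 0.829 and 8% over the 10 tumor samples. Within mice 4 and 5 alone, edgeR called Trbj1-5 in both tumors and in opposite directions, with 1.37 and 0.593% in tumor 1 (log2 fold change -1.72, SE 0.490, adjusted p = 0.0147) and 4 and 6.69% in tumor 2 (0.97, SE 0.291, adjusted p = 0.0259) against 3.43 and 3.18% in the TdLN. Within mice 1 to 3 its log2 fold change was 0.89 in tumor 1 (adjusted p = 0.126) and -0.02 in tumor 2. All these shares count small copies, sequences that share their last 40 bases with one of at least 50 times their templates. Over the series, the largest Trbj1 TCRs of tumor 1 in mice 2 and 3 had 24 and 10 other sequences of the same V gene, J gene and CDR3. Of these, 2 and 1 were not small copies. Without small copies edgeR called 0 of 14 J genes in each tumor over all mice. Mice 4 and 5 were not fitted that way. When rearrangements seen as a single template were left out, edgeR called Trbj1-1 (log2 fold change 2.25, adjusted p = 0.0115), Trbj1-6 (1.63, adjusted p = 0.0115) and 1 Trbj2 gene higher in tumor 1 than in the TdLN. These are the Trbj1 genes with the most single-template TCRs in the TdLN, as given next.

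The Trbj1 genes differed widely in how often a TCR was seen only once. In the TdLN, 91.0 ± 8.17% of Trbj1-1 TCRs (78.9 to 99.3%, n = 5) and 88.1 ± 8.19% of Trbj1-6 TCRs (75.6 to 96.6%) were single templates. The shares were 55.6 ± 10.3% for Trbj1-4, 55.5 ± 8.84% for Trbj1-2 and 39.0 ± 8.14% for Trbj1-3. Trbj1-5 stood lowest, at 28.7 ± 11.2% (10.8 to 38.3%). The Trbj1-5 range did not overlap that of Trbj1-1 or of Trbj1-6. A Trbj1-5 TCR had 4.0 templates on average and a Trbj1-1 TCR 1.23. Out-of-frame rearrangements of the same TdLNs gave the same ends of this order, with 94.4% single templates for Trbj1-1, 89.7% for Trbj1-6, 63.7% for Trbj1-2, 63.3% for Trbj1-4, 47.9% for Trbj1-3 and 40.9% for Trbj1-5. These are descriptions, with no test. The assay corrects template counts for primer bias, and what bias is left between J genes was not tested.

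**Figure D2:**
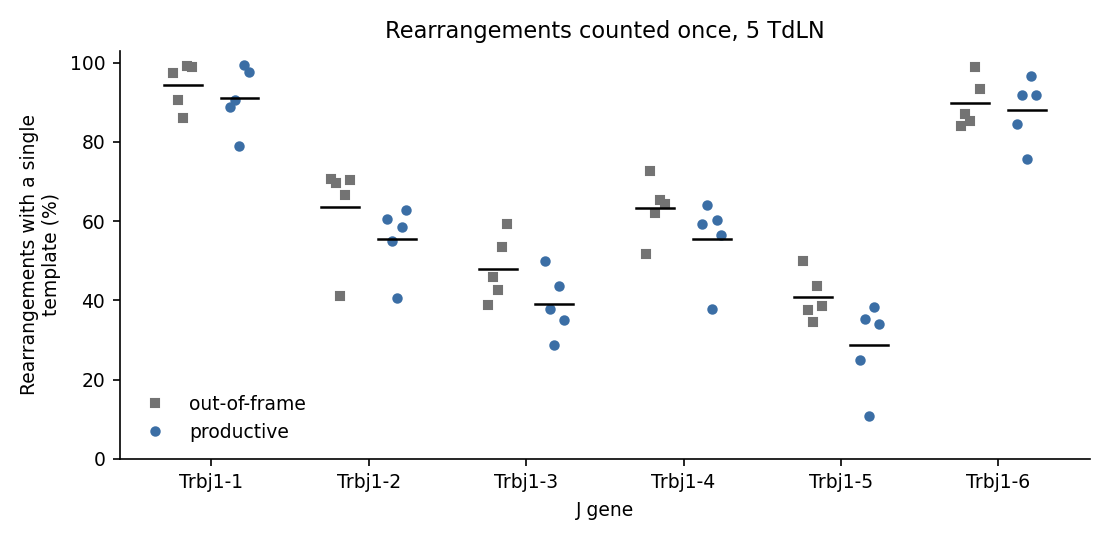
Percent of unique rearrangements seen as a single template (y axis) for Trbj1-1 to Trbj1-6 in the TdLN, out of frame (grey squares) and productive (blue circles), with 1 point per mouse and a line at the mean of 5 mice. Trbj1-1 and Trbj1-6 lie near the top in both classes and Trbj1-5 lies lowest, at 28.7% for productive and 40.9% for out-of-frame rearrangements.

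Trbj1-1 and Trbj1-7 were the Trbj1 genes whose use passed the test for a difference by reading frame. In the TdLN, Trbj1-1 took 5.30, 8.58, 8.21, 7.87 and 5.30% of out-of-frame rearrangements in mice 1 to 5, below its share of productive TCRs in 5 of 5 mice. The widest gaps were in mice 1 and 5. The log2 ratio of productive to out-of-frame use was 0.54 (SE 0.119, edgeR adjusted p = 0.0028), in a test that called 4 of 14 J genes (28.6%), 2 higher (14.3%) and 2 lower. Trbj1-7 was called in the other direction, with 2 productive and 10 out-of-frame rearrangements over the 5 TdLNs (edgeR adjusted p = 0.0180). By sample, its productive and out-of-frame counts were 0 and 0, 1 and 1, 0 and 0, 1 and 4, and 0 and 5 in mice 1 to 5. The 2 classes differed in kind for Trbj1-7, as described further below. In the TdLN, 19 Trbj1-7 rearrangements held at least 30 genomic bases in front of the J part, and 0 of these were productive. The other 2 there, the productive ones, had at most 1 such base. All 10 out-of-frame ones were thus of the first kind.

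The remaining Trbj1 genes did not pass this test when all rearrangements were counted. Trbj1-4 had a log2 ratio of 0.22 (SE 0.090, edgeR adjusted p = 0.0740) and Trbj1-5 one of -0.19 (SE 0.104, adjusted p = 0.151), while Trbj1-2, Trbj1-3 and Trbj1-6 lay at -0.02, 0.05 and 0.00. The Trbj1-1 call was lost without mouse 5 (log2 ratio 0.37, edgeR adjusted p = 0.0529) and among rearrangements of at least 2 templates (0.37, adjusted p = 0.380). At that minimum edgeR called 6 of 14 J genes by reading frame, with Trbj1-2, Trbj1-5 and Trbj1-7 among them. The Trbj1-7 call was lost without mouse 4 (adjusted p = 0.0726) and without mouse 5 (adjusted p = 0.114). For the cluster as a whole, out-of-frame shares were 28.5, 32.02, 28.8, 31.97 and 27.6%, and the productive share was 2.83 points higher (SD 2.82, n = 5, higher in 4 of 5 mice; two-sided exact sign-flip test, p = 0.125, where 5 mice allow no less than 0.0625). It was 1.78 points higher within mice 1 to 3 and 4.41 points higher within mice 4 and 5.

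**Figure D3:**
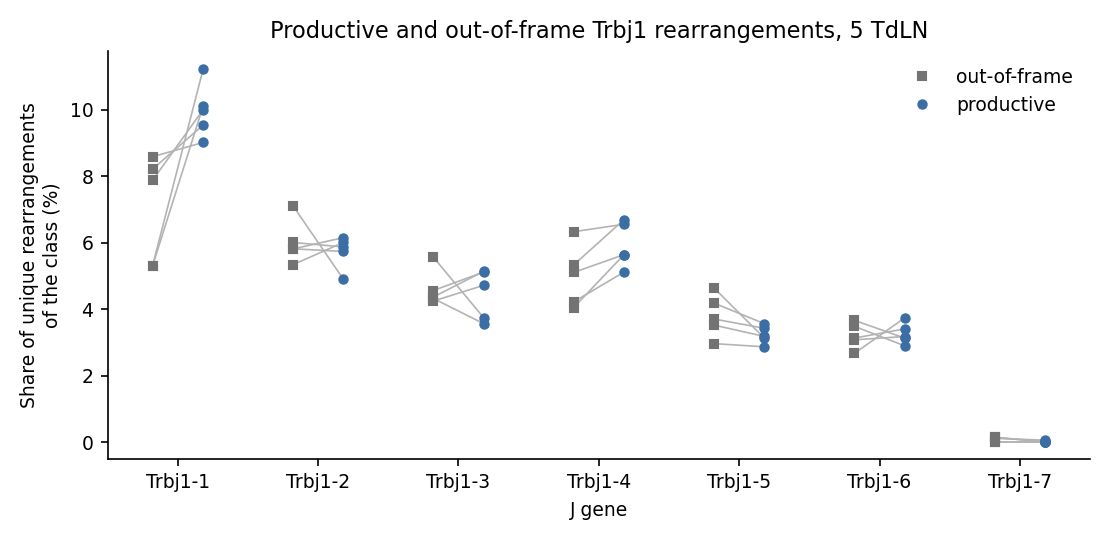
Share of unique rearrangements in the TdLN (percent, y axis) that used each Trbj1 gene, for productive and for out-of-frame rearrangements, with a line joining both values of each of the 5 mice. The Trbj1-1 lines rise toward the productive side in 5 of 5 mice, and Trbj1-6 shows no common direction.

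Whether that frame dependence differed between tissues was tested as an interaction over all 14 J genes. It was called for 0 genes in tumor 1 (0% called) and 0 in tumor 2 (0% called), with 1 and 0 genes at an unadjusted p under 0.05 by edgeR. The gene in tumor 1 was Trbj1-1, whose log2 productive to out-of-frame ratio was larger in tumor 1 than in the TdLN by 0.85 (SE 0.309, edgeR adjusted p = 0.167).

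Counted in templates, the cluster's share varied widely between tumors, and in some of them most of it was 1 TCR. The largest Trbj1 TCR held 51.3, 76.7 and 91.6% of Trbj1 templates in tumor 1 of mice 1 to 3. It held 57.4% in tumor 2 of mouse 2, and 19.4 to 44.9% in the other tumors. Trbj1 held 22.0, 27.8, 28.2, 31.0 and 32.4% of productive templates in the TdLN (28.3 ± 3.99%, n = 5). In tumor 1 it held 8.39, 35.9, 68.0, 31.8 and 29.4%. In tumor 2 it held 14.5, 25.8, 33.3, 13.4 and 57.0%. The tumor values thus lay both above and below the whole TdLN range. Without the largest Trbj1 TCR of each sample, with its templates still counted in the total, tumor 1 fell to 4.09, 8.38, 5.69, 21.7 and 21.5% and tumor 2 to 11.7, 10.999, 24.2, 7.98 and 31.4%, while the TdLN kept 19.6 to 32.1%.

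**Figure D4:**
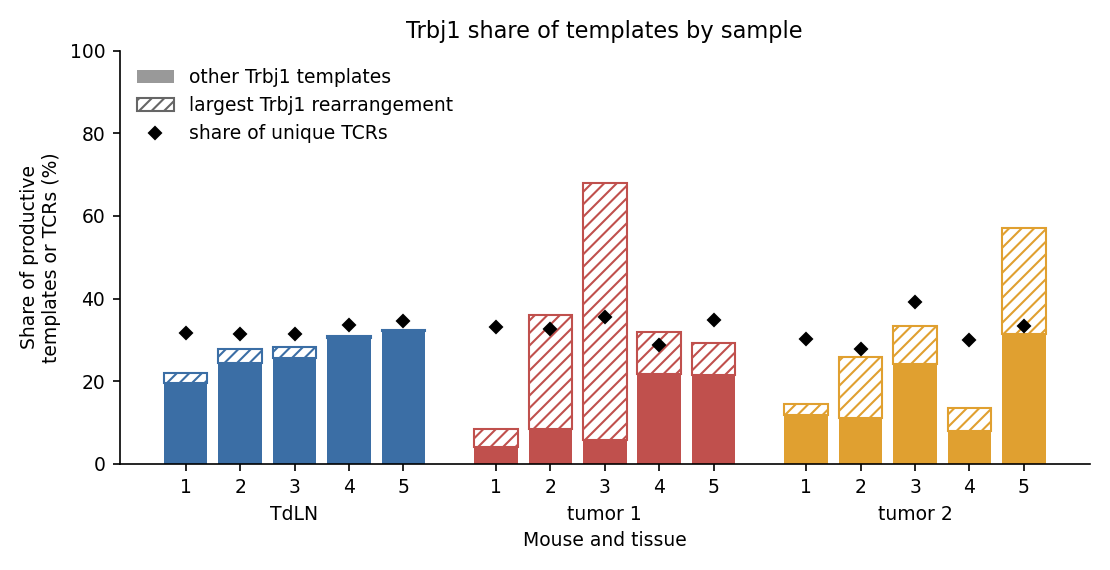
Share of productive templates held by Trbj1 (percent, y axis) in each of the 15 samples, with the largest Trbj1 TCR hatched, all other Trbj1 TCRs filled, and a diamond at the Trbj1 share of unique TCRs. The largest TCR makes 62.3% of tumor 1 in mouse 3, 27.6% of tumor 1 in mouse 2 and 25.6% of tumor 2 in mouse 5, and at most 3.47% of a TdLN, while the diamonds stay between 27.9 and 39.2%.

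The largest Trbj1 TCR of each tumor is given below as its 87 sequenced bases, with the part that matches the J gene in capitals. These are the sequences left out of the reduced template shares above. In mice 1, 2 and 4 the same sequence led the Trbj1 TCRs of both tumors, so 7 distinct sequences cover the 10 tumor samples.
Mouse 1, both tumors, Trbv2 with Trbj1-5: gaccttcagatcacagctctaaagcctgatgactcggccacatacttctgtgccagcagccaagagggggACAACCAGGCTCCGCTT
Mouse 2, both tumors, Trbv1 with Trbj1-5: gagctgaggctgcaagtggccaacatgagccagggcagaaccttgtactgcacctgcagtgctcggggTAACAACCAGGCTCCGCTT
Mouse 3, tumor 1, Trbv12-1 with Trbj1-3: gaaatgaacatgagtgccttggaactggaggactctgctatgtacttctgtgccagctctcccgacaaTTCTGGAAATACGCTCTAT
Mouse 3, tumor 2, Trbv17 with Trbj1-2: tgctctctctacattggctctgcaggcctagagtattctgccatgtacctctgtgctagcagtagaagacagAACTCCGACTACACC
Mouse 4, both tumors, Trbv13-1 with Trbj1-2: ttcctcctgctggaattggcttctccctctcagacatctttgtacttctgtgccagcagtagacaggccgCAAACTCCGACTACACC
Mouse 5, tumor 1, Trbv2 with Trbj1-4: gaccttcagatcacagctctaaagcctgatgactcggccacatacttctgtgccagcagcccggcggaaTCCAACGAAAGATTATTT
Mouse 5, tumor 2, Trbv1 with Trbj1-5: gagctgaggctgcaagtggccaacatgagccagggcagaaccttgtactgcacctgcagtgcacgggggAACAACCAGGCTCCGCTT

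Their spread over the tissues of a mouse differed. The mouse 1 sequence had 93 TdLN templates, 264 in tumor 1 and 112 in tumor 2, and the mouse 2 sequence had 113, 1158 and 498. The mouse 3 tumor 1 sequence had 106, 2476 and 118. The mouse 4 sequence had 9, 538 and 13. These 4 sequences were thus found in all 3 tissues of their mouse, with most templates in tumor 1. The mouse 5 tumor 1 sequence had 26 TdLN templates, 281 in tumor 1 and 0 in tumor 2. The tumor 2 sequences of mice 3 and 5, with 351 and 529 templates, had 0 templates in both other tissues. Each of the first 4 also had 31 to 94 templates in samples of other mice, the mouse 3 tumor 2 sequence had 9 there, and the mouse 5 sequences had 0.

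The Trbv1 with Trbj1-5 sequences of mice 2 and 5 encode the same CDR3 of 42 bases. They are set side by side again here with the bases at which they differ in capitals.
Mouse 2: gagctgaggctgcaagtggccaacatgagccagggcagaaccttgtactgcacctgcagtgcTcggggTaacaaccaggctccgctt
Mouse 5: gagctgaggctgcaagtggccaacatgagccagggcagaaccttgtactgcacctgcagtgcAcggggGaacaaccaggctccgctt
By the deposited calls the mouse 2 sequence keeps all J bases (0 trimmed) with 2 N insertions, and the mouse 5 sequence lost 1 J base with 1 N insertion. Over the series this V gene, J gene and CDR3 occurred as 25 nucleotide sequences, of which 3 were not small copies of a larger one (a small copy shares its last 40 bases with a sequence of at least 50 times its templates), in 3 mice and 5 samples. The third mouse was mouse 1, whose tumor 2 held 90 templates of the exact mouse 2 sequence, and the third sequence was a single template in tumor 2 of mouse 5, so distinct sequences came from mice 2 and 5.

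Out-of-frame Trbj1 rearrangements of similar size were found beside 3 of these TCRs. The largest out-of-frame Trbj1 rearrangement of each tumor was picked after its values were seen, and the 3 are given with the J part in capitals.
Mouse 2, Trbv22 with Trbj1-5: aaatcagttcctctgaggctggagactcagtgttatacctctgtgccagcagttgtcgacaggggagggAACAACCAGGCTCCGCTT
Mouse 3, Trbv20 with Trbj1-2: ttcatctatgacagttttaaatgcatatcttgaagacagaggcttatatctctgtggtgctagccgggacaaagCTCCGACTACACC
Mouse 4, Trbv3 with Trbj1-4: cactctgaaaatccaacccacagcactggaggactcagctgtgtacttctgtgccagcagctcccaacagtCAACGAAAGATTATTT
In mouse 2 this rearrangement had 96, 1081 and 453 templates in the TdLN, tumor 1 and tumor 2 and 80 in other mice, beside 113, 1158, 498 and 90 of the productive sequence. In mouse 3 it had 95, 1807 and 5 templates and 0 in other mice, beside 106, 2476, 118 and 94. The mouse 3 numbers were thus near each other in the TdLN and tumor 1 and apart in tumor 2 and in other mice. In mouse 4 it had 7, 466 and 20 templates and 21 in other mice, beside 9, 538, 13 and 31. The 3 rearrangements made 30.04, 76.6 and 17.7% of the out-of-frame templates of tumor 1 in mice 2, 3 and 4. In mice 1 and 5 the largest out-of-frame Trbj1 rearrangement gave no such match in tumor 1, with 47 templates beside 264 in mouse 1 and 28 beside 281 in mouse 5. Out-of-frame Trbj2 rearrangements were not searched, so a match among them could not be seen. No test was made of these matches.

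Over all 5 mice, Trbj1-1 was the Trbj1 gene called on its template share, which was lower in tumor 1. It held 5.45, 5.29, 4.97, 6.62 and 6.56% of productive templates in the TdLN of mice 1 to 5 and 1.99, 2.14, 2.89, 1.02 and 2.58% in tumor 1, with no overlap between the tissues. Tumor 2 held 2.92, 2.88, 2.75, 2.10 and 5.51%, where mouse 5 overlapped the TdLN. The log2 fold change in tumor 1 was -1.44 (SE 0.420, edgeR adjusted p = 0.0378), and edgeR called 2 of 14 J genes (14.3%), Trbj1-1 and Trbj2-2, both lower. Shares of 1 sample sum to a fixed total, and under TMM scaling, which moved the median log2 fold change of all J genes by 0.61, the value for Trbj1-1 was -0.37 (adjusted p = 0.659) with a median over all 14 genes of 0.55. The call was also lost without mouse 1, 2, 3 or 4 in turn (log2 fold change -1.63 to -1.21, edgeR adjusted p from 0.0903 to 0.143) and without rearrangements found in several mice (-0.15, adjusted p = 0.749). In tumor 2 the log2 fold change was -0.82 (SE 0.417, adjusted p = 0.423) and edgeR called 0 J genes (0% called), with 1 at an unadjusted p under 0.05; with the mouse as a block, edgeR called 1 gene there, Trbj2-2.

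Trbj1-2 to Trbj1-6 had template log2 fold changes from -0.28 for Trbj1-6 to 1.42 for Trbj1-3 (SE 1.24) in tumor 1, and from -1.14 for Trbj1-6 to 1.04 for Trbj1-5 (SE 1.195) in tumor 2. In tumor 1 Trbj1-4 held 0.587, 0.690, 0.302, 6.96 and 18.2% of templates against 3.31, 4.30, 3.81, 6.15 and 6.93% in the TdLN, and Trbj1-6 held 0.244, 0.786, 0.277, 6.54 and 0.9997% against 1.69, 2.06, 2.31, 2.14 and 2.55%. Within mice 1 to 3 both were lower, and edgeR called Trbj1-4 (log2 fold change -2.84, SE 0.783, adjusted p = 0.0418), Trbj1-6 (-2.21, SE 0.666, adjusted p = 0.0451) and Trbj2-2 there, while Trbj1-1 had -1.16 (adjusted p = 0.0554). Within mice 4 and 5 the values were 0.95 for Trbj1-4, 0.69 for Trbj1-6 and -1.87 for Trbj1-1, and 0 genes were called. Over all 5 mice, the standard errors of Trbj1-2 to Trbj1-6, 0.746 to 1.24, were larger than that of Trbj1-1. Trbj1-7 had 0 productive templates in tumor 1. Trbj1-3 made 62.9% of templates in tumor 1 of mouse 3 and Trbj1-5 made 29.1% in mouse 2. Among the 10 largest TCRs of each sample, Trbj1 gave 10 of 50 in the TdLN, 11 of 50 in tumor 1 and 15 of 50 in tumor 2. Of the Trbj1 TCRs of tumor 1, 41.98, 32.6, 52.3, 11.4 and 23.9% were also in the TdLN of the same mouse, beside 47.6, 37.1, 47.9, 11.5 and 23.2% of the Trbj2 TCRs; in tumor 2 these were 25, 26.7, 3.95, 26.7 and 7.03% beside 21.6, 25.7, 0, 17.1 and 4.62%.

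At the junction, Trbj1 ends were trimmed less than Trbj2 ends. Productive TdLN rearrangements had lost 2.59 bases of a Trbj1 segment on average (2.52 to 2.68 over 5 mice) and 2.99 bases of a Trbj2 segment (2.93 to 3.04), with no overlap. The within-mouse difference was -0.408 bases (SD 0.0552), lower in 5 of 5 mice (two-sided exact sign-flip test, p = 0.0625, the smallest that 5 mice allow, adjusted over 3 measures 0.0938; unpaired exact permutation test, adjusted p = 0.0119). CDR3s were 41.6 bases long with Trbj1 and 42.3 with Trbj2, a difference of -0.659 bases (SD 0.177, exact sign-flip p = 0.0625, adjusted 0.0938), which turned to 0.932 among rearrangements of at least 2 templates. N insertions numbered 3.43 and 3.67 (exact sign-flip p = 0.125).

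Trimming differed between the Trbj1 genes. Mean losses in productive TdLN rearrangements were 1.64 bases for Trbj1-3, 1.72 for Trbj1-2, 2.70 for Trbj1-1, 2.85 for Trbj1-5, 3.0 for Trbj1-4 and 4.05 for Trbj1-6, the longest segment of the cluster at 53 bases. Their CDR3s averaged 42.8, 40.9, 39.9, 41.8, 43.3 and 43.5 bases in the same order. Trbj1-4 was trimmed less in productive than in out-of-frame rearrangements, by 3.0 against 3.44 bases (difference -0.44, SE 0.137, limma adjusted p = 0.0281), and was the only J gene called of 12 tested (8.33%). That call was lost without mouse 1 (limma adjusted p = 0.0549), without mouse 4 (0.242) and without the mouse as a block (0.183). In the tumors, Trbj1 trimming was 2.17 ± 0.409 bases in tumor 1, against 2.59 ± 0.0593 in the TdLN (n = 5; exact permutation p = 0.0556, adjusted over 6 tests 0.333), and 2.35 bases in tumor 2 (exact adjusted p = 0.648). The tumor 1 difference was -0.691 bases within mice 1 to 3 and 0.00410 within mice 4 and 5. N insertions were 3.81 and 3.6 in tumors 1 and 2 and CDR3 lengths 41.5 and 41.3 bases, each at an exact adjusted p of 0.648 or 0.651.

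The D segment in Trbj1 rearrangements was mostly Trbd1. Of TdLN productive Trbj1 TCRs with a D call, 8.47 to 11.9% (mean 9.80%) were called Trbd2, against a mean of 63.5% for Trbj2. The Trbd2 calls in Trbj1 matched 5.68 D bases on average, less than the 6.63 bases of the Trbd1 calls beside them or the 8.62 bases of Trbd2 calls in Trbj2. No D was called in 23.5% of Trbj1 and 15.1% of Trbj2 TCRs. The calls are those of the deposited files and rest on these few bases.

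Trbj1-7, a segment preceded by the heptamer GGTTGTG, was found in 34 rearrangements with 44 templates, of which 3 were productive, 19 out of frame and 12 with a stop codon. In 21 of them at least 30 bases in front of the J part were identical to the genome just upstream of Trbj1-7, which the files count as insertions (33 to 55 bases). None of these 21 was productive (11 were out of frame and 10 had a stop codon), and 19 came from the TdLN. In 17 the run took in the whole stretch of 35 bases between Trbj1-6 and Trbj1-7. Trbj1-6 is the only Trbj1 segment that holds the letters CACTGTG within itself, and 19 of the 21 runs were no longer than the 39 bases from there to Trbj1-7. An example of the longest run within those 39 bases and the longest run of all are shown, with the genomic bases upstream of Trbj1-7 in capitals.
TdLN, mouse 4, 39 bases: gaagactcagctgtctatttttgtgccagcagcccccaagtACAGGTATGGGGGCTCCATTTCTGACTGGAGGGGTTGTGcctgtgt
Tumor 2, mouse 5, 51 bases: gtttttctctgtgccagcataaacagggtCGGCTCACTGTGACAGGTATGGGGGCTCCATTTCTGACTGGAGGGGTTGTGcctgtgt
The other 13 rearrangements had at most 1 such base and 5 to 21 insertions. They held all 3 productive ones, 11 were from tumors, and 8 used Trbv15 and 4 Trbv27.

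The V gene joined to a DJ product went with the J cluster used. For each V gene with at least 20 TCRs in every TdLN, the share of Trbj1 among its TCRs was set against that among all other V genes of the same mouse, and limma called 8 of 19 V genes (42.1%), 4 higher (21.1%) and 4 lower (21.1%). Trbv20 used Trbj1 in 42.9, 32.3, 38.9, 45.5 and 43.8% of its TCRs, 8.24 points above the other V genes (SE 1.85, limma adjusted p = 0.00986). Trbv31 was above them by 7.51 points (SE 2.46) and Trbv19 by 7.26 points (SE 2.39), both at a limma adjusted p of 0.0393. Trbv31 is the V gene that lies downstream of both J clusters and joins by inversion.

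In the other direction, Trbv15 used Trbj1 in 24.1, 23.1, 20.5, 29.1 and 26.7% of its TCRs, with a difference of -8.17 points (SE 1.48, limma adjusted p = 0.00625). Trbv14 differed by -8.69 points (SE 2.90, adjusted p = 0.0393), at 16.9, 29.0, 11.6, 32.6 and 31.2%, and Trbv17 by -7.76 points (SE 1.76, adjusted p = 0.00986). Without mouse 5, 2 V genes were called, and Trbv15 and Trbv17 kept their calls without any mouse in turn. With a minimum of 50 TCRs, 13 V genes were tested and 0 called; 5 of the 8 were then not tested, and the other 3 kept their differences at limma adjusted p = 0.0611. Among rearrangements of at least 2 templates, 0 of 13 were called. Out-of-frame rearrangements called 4 of 17 V genes tested, of which only Trbv31 was shared, and gave Trbv15 a difference of 0.356 points. Trbv14, Trbv20 and Trbv29 had too few out-of-frame rearrangements to be tested there.

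**Figure D5:**
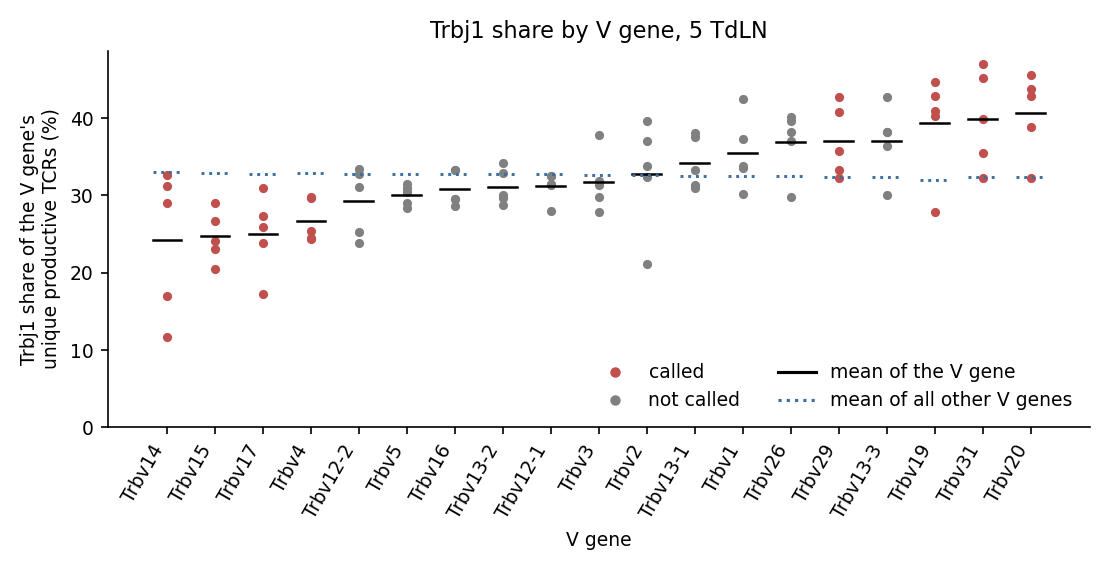
Percent of a V gene's unique productive TCRs that used Trbj1 (y axis) for the 19 V genes tested in the TdLN (x axis, ordered by mean), with 1 point per mouse, red for called V genes, a line at the V gene's mean and a dotted line at the mean of all other V genes. Trbv20, Trbv31 and Trbv19 lie highest, by 7.26 to 8.24 points above the dotted line, and Trbv14, Trbv15 and Trbv17 lie lowest, at differences of -8.69 to -7.76 points.

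Across all 15 samples, the V genes whose share of unique TCRs moved most like the Trbj1 share were Trbv26 (Spearman's rho 0.49), Trbv12-2 (0.37) and Trbv2 (0.34), of 20 V genes compared. The samples of a mouse are not independent and the shares are of the same total, so these are descriptions.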

How the data were processed

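TCR β rearrangements had been amplified from genomic DNA and sequenced with the immunoSEQ assay, and 1 table per sample was deposited; per the file headers it gives each rearrangement's template count (the authors' estimated number of input copies, bias-corrected by the assay), its fraction of the sample and its V, D and J calls, on mm10 per the labels. Aligner and versions are not given in the sources used here. The deposited fractions served only as a check of the totals. Shares were computed over all unique productive rearrangements or productive templates, including the 37 rearrangements without a J gene (36 tied between Trbj2-5 and Trbj2-7).

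J genes were tested over all 14 genes with edgeR 4.0.16 (quasi-likelihood, sample totals as library sizes, no TMM), and trimming and V genes with limma 3.58.1. Single values were tested with exact permutation and sign-flip tests written in Python 3.11.15 with numpy 2.4.6. P-values were Benjamini-Hochberg adjusted, with a threshold of 0.05. DESeq2 1.42.0, TMM, pseudocounts of 0.1 and 1, a filter of 1%, a minimum of 2 templates, 100 downsampling draws, removal of rearrangements shared by mice and leaving out each mouse were alternatives. The fits were tested on simulated data. Samples with the same number come from 1 mouse; their deviations over 14 J genes correlated at -0.455 to 0.542 (median 0.148, above 0.1 in 11 of 15 pairs). Germline sequences are RefSeq's on GRCm38.

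All 7 Trbj1 genes were included in every main test of J gene usage, but the values of some are not printed. Some of the called Trbj2 genes were named. So were the 3 V genes called with the largest difference in each direction, and the 3 V genes most like the Trbj1 share. Members and lists were chosen with earlier results of these data known.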

Additional observations from a re-analysis of the deposited data

Results flagged for a closer look

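Of 81 sets of 5 samples, 12 held a sample whose gap to the nearest other exceeded Dixon's critical value, where chance gives about 1 in 20. Template shares stood apart for Trbj1-3 in tumor 1 of mouse 3 (62.9%), Trbj1-5 in tumor 1 of mouse 2 (29.1%), Trbj1-4 in tumor 2 of mouse 3 (9.91%), Trbj1-6 in tumor 1 of mouse 4 (6.54%) and Trbj1-1 in tumor 2 of mouse 5 (5.51%). Out-of-frame shares stood apart for Trbj1-5 in tumor 1 of mouse 2 (10.2%), Trbj1-3 in the TdLN of mouse 2 (5.57%) and Trbj1-7 in tumor 1 of mouse 5 (1.2%). Trbj1-7, which is at 0 in most samples, stood apart in the TdLN of mouse 2 (0.0613% of unique productive TCRs) and in tumor 2 of mouse 3 (0.515% of unique productive TCRs and 0.0519% of templates). The mean number of N insertions in Trbj1 TCRs stood apart in tumor 1 of mouse 2 (4.84).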

How the results depend on the processing

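Depth limits the tumor values, with 50 TCRs in tumor 2 of mouse 4. Trbj1 rearrangements seen as 1 template make 64.7% of those in the TdLN, so a minimum of 2 templates changes which rearrangements are compared. With that minimum the Trbj1 share differed from the TdLN by -0.945 points in tumor 1, tumor 1 from tumor 2 by -0.561 points and productive from out-of-frame by -7.51 points, trimming in tumor 1 by 0.0312 bases, N insertions by -0.0674 in tumor 1 and -0.183 in tumor 2, and CDR3 length between the clusters by 0.932 bases. It gave 3 J genes called on unique TCRs in tumor 1 and 1 in tumor 2, 6 for reading frame, and 0 genes for trimming and 0 V genes. A minimum of 50 TCRs, which left out 5 of the 8, gave 0 V genes. Out-of-frame rearrangements gave 4 of 17 V genes, with Trbv15 at 0.356 points and with Trbv14, Trbv20 and Trbv29 not tested. Downsampling to equal depth gave a Trbj1 share difference of 1.02 points for tumor 2 and -3.61 points for tumor 1 against tumor 2. Medians gave N insertions of -0.0281 for tumor 2 and 0 genes for trimming.

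On templates in tumor 1, 0 J genes were called with TMM, without rearrangements of several mice, without those larger in another mouse, by exact permutation, and within mice 4 and 5; mice 1 to 3 gave 3 (Trbj1-4, Trbj1-6 and Trbj2-2, of which 1 was called over all mice), limma with a pseudocount of 1 gave 3, and the block, DESeq2, the filter of 1% and limma with 0.1 gave 2. In tumor 2, DESeq2 called 1, limma with a pseudocount of 0.1 called 1 and of 1 called 2, and mice 1 to 3 gave 1. On unique TCRs mice 4 and 5 gave 1 gene in each tumor, Trbj1-5, lower in tumor 1 and higher in tumor 2. Mice 1 to 3 gave 1 gene for reading frame, 0 for trimming (mice 4 and 5 also 0) and 4 V genes. Removal of rearrangements larger in another mouse, removal of those of several mice from the template counts, and the alternatives for Trbj1 against Trbj2 were chosen after seeing the data.

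With the mouse as a replicate block, edgeR called 1 J gene on templates in tumor 2. Trimming called 0 genes without the block, and the unpaired test of Trbj1 against Trbj2 put trimming (-0.408 bases) and CDR3 length (-0.659 bases) past the threshold; the block changed no other call.

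Leaving out each mouse in turn gave Trbj1 share differences of -0.622 to 1.63 points in tumor 1, -2.48 to 0.353 in tumor 2 and -0.213 to 1.86 between the tumors. It gave 0 to 2 J genes on templates in tumor 1, 0 to 1 in tumor 2, 1 to 4 for reading frame, 0 to 2 for trimming and 2 to 8 V genes. Of 266 values answering a comparison, 214 kept their direction and side of the threshold, or for counts stayed within 1.5 times, and 14 reversed direction; the cause of the changes was not tested.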
